A study of Homo sapiens with 8 samples.

Results

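Genes of cholesterol and fatty acid synthesis were followed in HSC39, a human signet ring gastric carcinoma cell line, after transfection with siRNA to TRIM44 or treatment with a negative siRNA. The genes were chosen by name, with earlier results of these data known, so shares among them are descriptive. Of 36 listed, 33 had a probe set that the platform annotation ties to a single symbol, out of 18404 genes measured in this way. They comprised 4 regulators of the sterol regulatory element-binding proteins (SREBPs), 17 genes of the sterol branch and 12 of the fatty acid branch, on 34 of 19158 probe sets, since CYP51A1 had 2. HSD17B7 shares its probe set with other symbols, and no levels of FDFT1 and ACSL3 were analysed here.

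SREBPs are transcription factors made as precursors in the membrane of the endoplasmic reticulum. SCAP escorts them to the Golgi for cleavage when sterols are low, and INSIG proteins hold the complex back when sterols are plentiful. SREBF2 encodes the member best known for driving sterol synthesis, and SREBF1 the member best known for fatty acid and glycerolipid synthesis; both sets of enzymes supply membrane lipid in dividing epithelial cells.

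RNA of 8 samples was hybridised to 1 Affymetrix whole-transcript array each: 4 labelled All stars negative SiRNA, 2 labelled TRIM44-SiRNA(7) and 2 labelled TRIM44-SiRNA(9). The labels give 100 nM (written nm) of TRIM44 siRNA for 48 h, in RPMI with fetal calf serum, which itself carries sterols and fatty acids; for the negative siRNA the sources used here give neither dose nor time. HSC39 is 1 cell line, the series text speaks of 4 biological replicates per condition with both reagents counted together, and nothing else says that the cultures were separate, so each p-value reflects the scatter of these arrays, part of which may be technical. Values are deposited log2 levels per probe set, and a difference of 1 is a doubling.

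TRIM44 stood between 11.77 and 12.02 on the negative arrays and between 10.85 and 11.27 on the silenced arrays, without overlap. It fell with siRNA 7 by 0.84 and with siRNA 9 by 0.78 on the log2 scale (limma adjusted p = 0.0405 and 0.0155). With single arrays left out, the siRNA 7 call held without negative array 2 (0.0383) or siRNA 7 array 2 (0.0252) and ended without each of the other 6, while the siRNA 9 call ended without siRNA 9 array 1 (0.240) or 2 (0.203). Of the epithelial markers, 8 of 8 lay above the median level of all probe sets, from 10.37 for CLDN4 to 13.05 for KRT8, whereas 0 of 5 leukocyte, 0 of 4 endothelial, 0 of 4 adipocyte and 2 of 7 fibroblast markers did; none of these markers passed the threshold for siRNA 7, siRNA 9 or their difference. Before the results, 1 array needs mention. Along the first principal component (32.5% of variance) negative array 2 lay at 13.6 beside the siRNA 9 arrays at 15.5 and 17.2. The other 5 arrays lay between -11.8 and -5.57. For the genes described array by array below, values without negative array 2 are therefore given where they bear on a call. They are also given for some genes, not all, where that array was close to the siRNA 9 arrays. Leaving out a negative array that resembles the siRNA 9 arrays can by itself enlarge siRNA 9 differences or reduce the spread. Calls gained in that way are therefore no separate support. With single arrays left out, siRNA 9 calls over all probe sets reached up to 1067, against 177 as reported. The number of arrays limits the precision, and signal over background is not given, so no level can be called absent.

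Promoter sequence of 4 genes that the results turn on is shown first. The bases below are the 250 before the RefSeq transcript start on GRCh38.p14, read 5′ to 3′ on the gene's strand, for SREBF2 (chr22:41832855-41833104, plus strand), INSIG1 (chr7:155297628-155297877, plus strand), HMGCS1 (chr5:43313413-43313662, minus strand) and GPAM (chr10:112183766-112184015, minus strand). Capitals mark the sterol regulatory element core TCACNCCAC with the base before it, which reads ATCACCCCAC in SREBF2, and the NF-Y box CCAAT, which reads ATTGG where it lies on the other strand. The GPAM stretch holds none of them and has no capitals. SREBF2 and GPAM are shown because they were lower with siRNA 9, INSIG1 because its level was above all negative arrays on every silenced array, and HMGCS1 as the enzyme that makes HMG-CoA at the head of the sterol branch.
SREBF2: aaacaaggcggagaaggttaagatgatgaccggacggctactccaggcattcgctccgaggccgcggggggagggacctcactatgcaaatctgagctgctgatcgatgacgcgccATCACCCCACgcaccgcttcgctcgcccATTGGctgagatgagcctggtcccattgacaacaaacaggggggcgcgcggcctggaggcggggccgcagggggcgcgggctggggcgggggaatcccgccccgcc
INSIG1: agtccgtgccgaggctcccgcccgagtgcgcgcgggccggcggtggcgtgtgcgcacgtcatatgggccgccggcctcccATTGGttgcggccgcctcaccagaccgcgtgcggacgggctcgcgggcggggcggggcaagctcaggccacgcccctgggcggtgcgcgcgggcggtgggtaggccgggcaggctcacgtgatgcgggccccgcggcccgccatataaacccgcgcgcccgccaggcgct
HMGCS1: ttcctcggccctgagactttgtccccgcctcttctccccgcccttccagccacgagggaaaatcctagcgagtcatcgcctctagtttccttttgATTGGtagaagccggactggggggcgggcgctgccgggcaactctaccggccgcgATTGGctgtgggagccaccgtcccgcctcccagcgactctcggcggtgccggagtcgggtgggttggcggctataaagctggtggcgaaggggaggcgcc
GPAM: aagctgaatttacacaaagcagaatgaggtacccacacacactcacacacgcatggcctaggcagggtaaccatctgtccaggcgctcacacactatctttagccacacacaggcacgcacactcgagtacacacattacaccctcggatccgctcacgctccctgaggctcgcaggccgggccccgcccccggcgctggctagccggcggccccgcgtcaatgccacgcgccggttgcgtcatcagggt

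The SREBF2 promoter holds the core from position -133, with the base before it from -134, and a CCAAT box on the opposite strand at -106. Windows from 250 bases before to 50 after the start, of 300 bases each, were searched on both strands for 32 of the 36 listed genes, HSD17B7 and ACSL3 among them, and for all 35116 promoters of the table. TCACNCCAC was found in 1 of the 32, SREBF2, and in 1.13% of all promoters. The longer run ATCACCCCAC was read from SREBF2 itself, so its match there is given by its choice; it was found in 16 promoters of the table (0.0456%). CCAAT was found in 13 of 16 sterol branch promoters, in 6 of 12 of the fatty acid branch and in 2 of 4 of the regulators, against 34.6% of all promoters; in GPAM it lies after the start, at position 18. The E-box CACGTG was found in 5 of 32 member promoters and 7.26% of all, and the Sp1 box GGGCGG in 29 of 32 and in 15786 of all 35116. The member promoters not in the table are those of ACAT2, FDFT1, SQLE and FASN. A match is a run of letters, and binding was not measured here. Only exact matches were searched for, so variants of an element were not seen. A promoter without a match is thus not shown to lack the element.

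With siRNA 9, 2 of the 33 genes passed the threshold, both lower: the regulator SREBF2 and GPAM, the mitochondrial acyltransferase that starts glycerolipid synthesis. They fell to 61.9% and 61.5% of the level with negative siRNA. Neither passed with the replicate number as a block (limma adjusted p = 0.0522 and 0.0575) or with all 32321 probe sets tested (0.0911 and 0.0821). Numbers 3 and 4 occur on negative arrays alone, so the block fit sets siRNA 9 against negative arrays 1 and 2 only. With siRNA 7 none of the 33 passed, and with both reagents counted together none passed. The only probe set called with both reagents was that of TRIM44 itself, at -0.81 (limma adjusted p = 0.0449). That call held in 1 of 8 fits with an array left out, so the pooled comparison could detect little. The 2 of 33 are 6.06% of the genes, and over all probe sets limma called 0.924% for siRNA 9, and 0.59% as lower. For siRNA 7 limma called 0.0679% of all probe sets and for both reagents together 0.00522%; at an unadjusted p under 0.05 there were 4 of the 33 genes with siRNA 7, all lower (12.1%, against 4.66% of all probe sets), and 3 with both reagents, beside 5.43% of all probe sets. With siRNA 9 there were 3 higher and 2 lower, beside 8.05% and 5.56% of all probe sets. For 6 of the 33 genes both siRNA 9 arrays exceeded every negative array, and for 3 both were lower (18.2% and 9.09%), beside 13.4% and 9.23% of all probe sets.

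**Figure D1:**
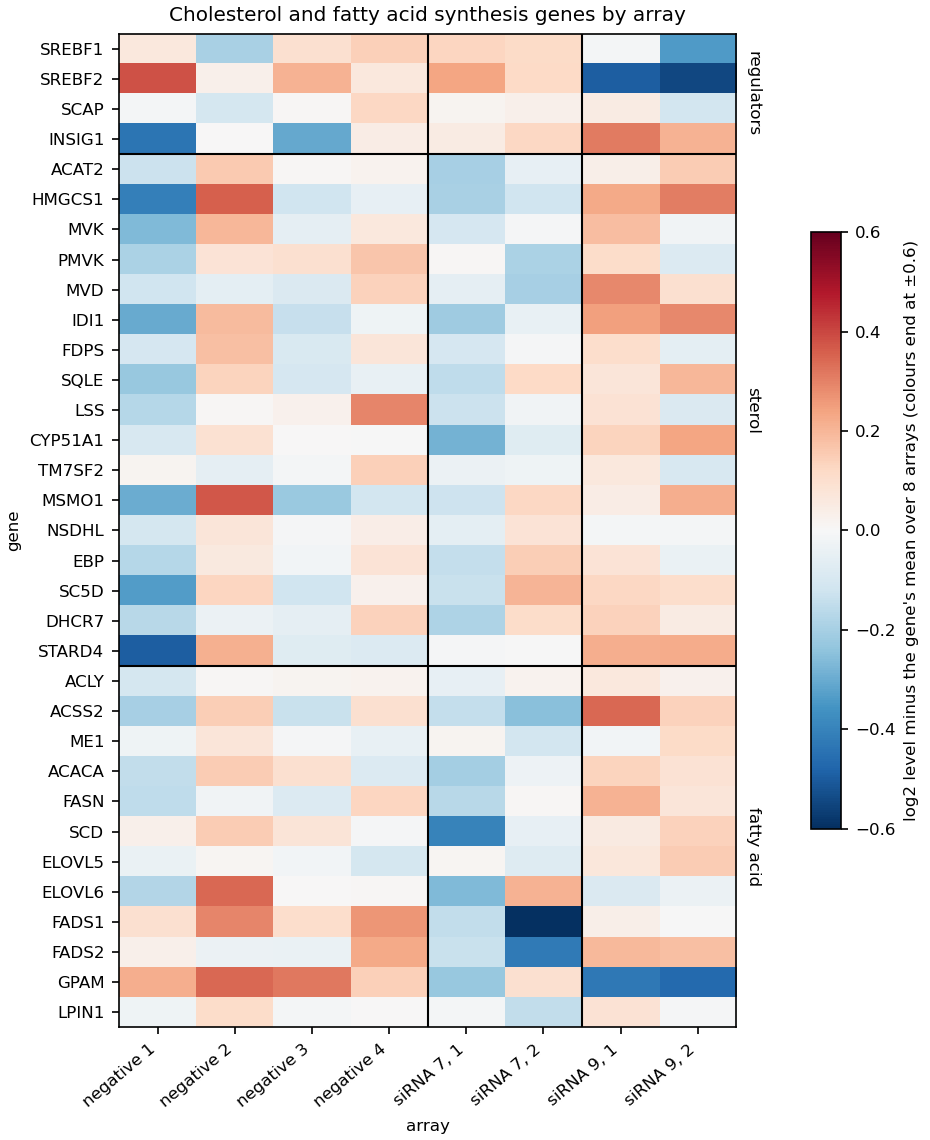
Each row is 1 of the 33 genes, each column 1 of the 8 arrays; colour is the log2 level minus the gene's mean over the 8 arrays. SREBF2 and GPAM are low on both siRNA 9 arrays, FADS1 and FADS2 are low on siRNA 7 array 2, and 16 of 17 sterol genes, all but TM7SF2, are lower on negative array 1 than on the other negative arrays.

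Among the regulators, SREBF2 stood at 11.07, 10.71, 10.89 and 10.75 on the negative arrays, at 10.92 and 10.80 with siRNA 7 and at 10.19 and 10.14 with siRNA 9. Both siRNA 9 arrays lay below all other arrays, and the siRNA 7 arrays lay within the range of the negative arrays. SREBF2 thus fell with siRNA 9 by 0.69 (SE 0.11, limma adjusted p = 0.0161), while with siRNA 7 the difference was 0.01 (95% interval -0.23 to 0.25, adjusted p = 0.998). The reagents themselves differed, with siRNA 9 lower than siRNA 7 by 0.70 (log2 difference -0.70, SE 0.13, limma adjusted p = 0.0200). Without negative array 2 the siRNA 9 difference of SREBF2 was -0.74 (adjusted p = 0.00333). Its size stayed between -0.74 and -0.62 with each array left out, and the call ended without negative array 3 (limma adjusted p = 0.0616) and without siRNA 9 array 1 or 2 (0.224 and 0.264); a group left with 1 array takes its spread from the other groups. The call between the reagents ended without each of the 4 silenced arrays (limma adjusted p = 0.0964, 0.0848, 0.189 and 0.172), with sizes from -0.76 to -0.64.

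INSIG1, which retains the SCAP complex in the endoplasmic reticulum and is itself a well-known SREBP target, showed values of 10.71, 11.15, 10.84 and 11.19 on the negative arrays. It stood at 11.20 and 11.27 with siRNA 7 and at 11.46 and 11.36 with siRNA 9. All 4 silenced arrays lay above all 4 negative arrays, although siRNA 7 array 1 was only just above negative array 4. Over all probe sets, 1.59% had such an order. The log2 difference for both reagents was 0.35 (SE 0.11, limma adjusted p = 0.800). Permuting the arrays exactly (2-sided) gave p = 0.0286, which is the minimum over 70 assignments. That order of the arrays alone fixes this p, so it is no separate support. By reagent INSIG1 had 0.26 with siRNA 7 (adjusted p = 0.741) and 0.43 with siRNA 9 (adjusted p = 0.167). Without negative array 2 the siRNA 9 difference was 0.49 and passed (limma adjusted p = 0.0485).

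SREBF1 stood at 9.32, 9.05, 9.35 and 9.39 on the negative arrays, at 9.38 and 9.37 with siRNA 7 and at 9.24 and 8.91 with siRNA 9. Its siRNA 9 arrays lay below both siRNA 7 arrays but overlapped the negative arrays, because negative array 2 was also low. The difference was 0.09 with siRNA 7, -0.20 with siRNA 9 and -0.30 between siRNA 9 and siRNA 7 (limma adjusted p = 0.977, 0.526 and 0.331). Without negative array 2 the siRNA 9 difference was -0.28 (limma adjusted p = 0.159); it was -0.37 without siRNA 9 array 1 and -0.040 without siRNA 9 array 2. SCAP, the sterol-sensing escort protein, had differences of 0.02 and -0.03, with 95% intervals of -0.19 to 0.23 and -0.24 to 0.18, and overlapping arrays in every comparison. The 4 regulators thus held values in both directions with siRNA 9, from -0.69 for SREBF2 to 0.43 for INSIG1.

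**Figure D2:**
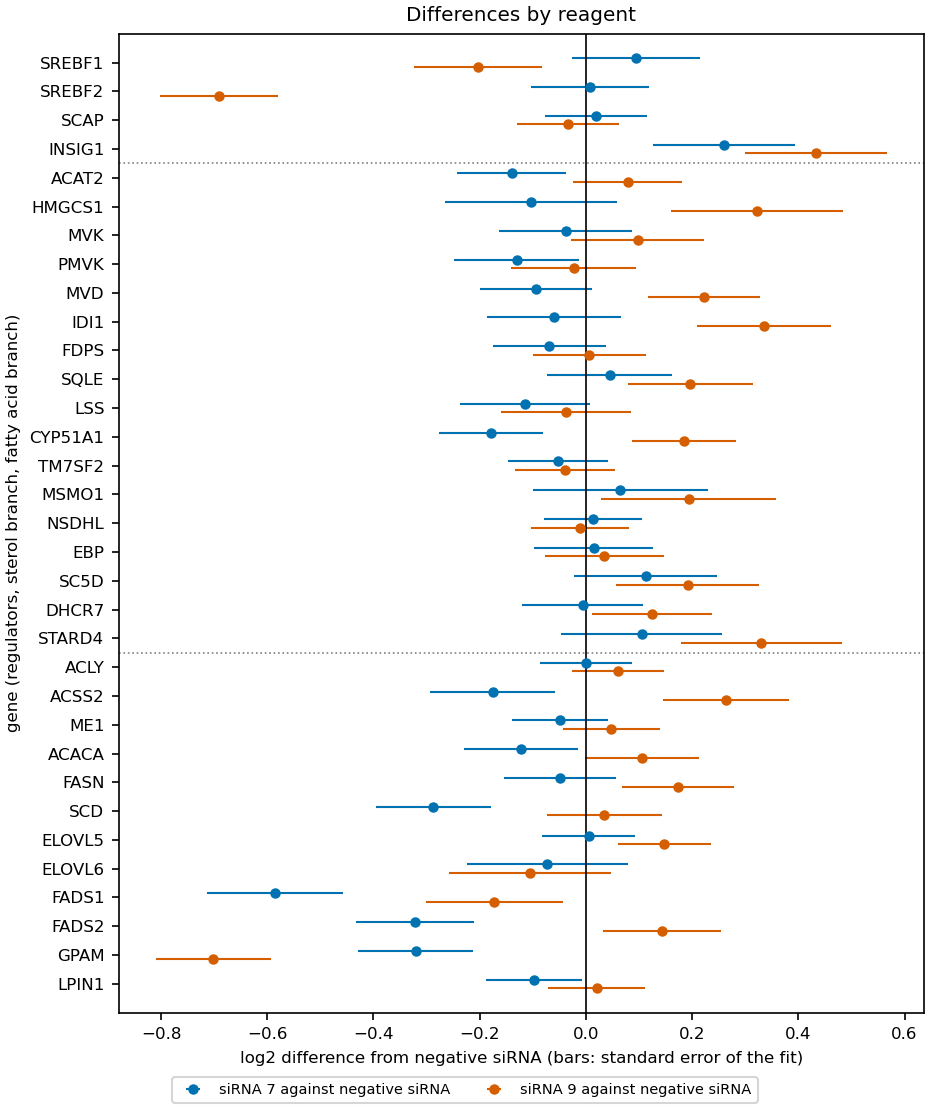
Points are fitted log2 differences from the 4 negative arrays for each gene, blue for siRNA 7 and orange for siRNA 9 (2 arrays each), with the standard error of the fit as bars; dotted lines part regulators, sterol branch and fatty acid branch. Both comparisons share the negative arrays. SREBF2 and GPAM lie far to the left with siRNA 9, and 16 of 17 sterol genes lie further right with siRNA 9 than with siRNA 7.

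In the sterol branch none of the 17 genes passed in any of the 4 comparisons in limma. At an unadjusted p under 0.05 there were 0 for both reagents, 0 for siRNA 7, 1 for siRNA 9 and 4 between the reagents, all higher. The last 2 counts are 5.88% and 23.5% of the genes, beside 8.05% and 9.58% of all probe sets. Over all probe sets 5.43% reached that p for both reagents, and 2.81% higher and 4.66% lower for siRNA 7. With siRNA 9, 13 of 17 had a difference above 0 and the branch median was 0.12, beside 56.5% of all probe sets above 0 and a median of 0.02. With siRNA 7, 6 of 17 were above 0 and the median was -0.05, beside 49.3% and a median of -0.00 for all probe sets. Between the reagents, 16 of 17 sterol genes were higher with siRNA 9 than with siRNA 7, with a median of 0.13, while 56.7% of all probe sets were higher, with a median of 0.03. The arrays of the reagents did not overlap for 6 of the 17, all higher with siRNA 9, and 28.7% of all probe sets had that order. This median was 0.03 without siRNA 7 array 1 and 0.24 without siRNA 7 array 2.

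By step of the pathway, HMGCS1, which makes HMG-CoA, stood at 11.20, 11.97, 11.49 and 11.56 on the negative arrays, at 11.41 and 11.49 with siRNA 7 and at 11.84 and 11.92 with siRNA 9. The siRNA 9 arrays lay above the siRNA 7 arrays and above all negative arrays but negative array 2, the highest of all 8. The difference was 0.32 with siRNA 9 (SE 0.16, limma adjusted p = 0.423), and 0.46 without negative array 2 (limma adjusted p = 0.0372). ACAT2, which supplies acetoacetyl-CoA, had -0.14 with siRNA 7 and 0.08 with siRNA 9. The phosphorylating and decarboxylating enzymes that follow had small values: with siRNA 9 the differences were 0.10 for MVK, -0.02 for PMVK and 0.22 for MVD.

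IDI1, the isomerase that makes the reactive isoprenoid unit, stood at 8.15, 8.64, 8.31 and 8.42 on the negative arrays, at 8.23 and 8.41 with siRNA 7 and at 8.69 and 8.74 with siRNA 9. Both siRNA 9 arrays lay above all other arrays. The difference was 0.34 (SE 0.13, limma adjusted p = 0.254), and 0.42 without negative array 2 (limma adjusted p = 0.0383). FDPS, the farnesyl diphosphate synthase, had 0.01, and SQLE, the squalene epoxidase, had 0.20 with siRNA 9. LSS, which closes the sterol ring system, had -0.11 with siRNA 7 and -0.04 with siRNA 9.

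CYP51A1, the lanosterol demethylase, stood on its brighter probe set at 11.42, 11.61, 11.52 and 11.52 on the negative arrays, at 11.23 and 11.44 with siRNA 7 and at 11.65 and 11.75 with siRNA 9. The siRNA 9 arrays lay above all other arrays, and siRNA 7 array 1 lay below them all. The log2 difference between the reagents was 0.36 (SE 0.11, limma adjusted p = 0.128), and on the dimmer probe set 0.43 (limma adjusted p = 0.180), so both probe sets had the same direction without passing. Against negative siRNA the brighter probe set had -0.18 with siRNA 7 and 0.18 with siRNA 9, and the dimmer one had -0.00 and 0.43.

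Of the later sterol enzymes, MSMO1, a methyl sterol oxidase, had 0.06 with siRNA 7 and 0.19 with siRNA 9, and DHCR7, which reduces 7-dehydrocholesterol, had -0.01 and 0.12. SC5D, the lathosterol desaturase, stood at 9.81, 10.28, 10.03 and 10.17 on the negative arrays, at 10.02 and 10.35 with siRNA 7 and at 10.27 and 10.26 with siRNA 9. Its arrays overlapped in every comparison, and it had 0.11 with siRNA 7 and 0.19 with siRNA 9 (limma adjusted p = 0.970 and 0.615); without siRNA 7 array 2 the former was -0.056. The sterol reductase gene TM7SF2, NSDHL and the isomerase gene EBP all had differences between -0.05 and 0.03 with either reagent. STARD4, a carrier of cholesterol between membranes, stood at 8.10, 8.81, 8.52 and 8.51 on the negative arrays, at 8.59 and 8.59 with siRNA 7 and at 8.81 and 8.82 with siRNA 9. Its siRNA 9 arrays were above all others, although negative array 2 was nearly as high, and the difference was 0.33 (SE 0.15, limma adjusted p = 0.369), and 0.44 without negative array 2 (limma adjusted p = 0.0664).

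The sterol genes were ordered alike among the negative arrays, which share 1 label. Negative array 1 was the lowest of the 4 for 16 of 17 sterol genes, where it was the lowest for 22.3% of all probe sets, and negative array 2 was the highest for 11 and negative array 4 for 6, where they were the highest for 27.6% and 40.3% of all probe sets. The mean of the branch, with each gene centred over all arrays, was -0.21, 0.12, -0.06 and 0.05 on negative arrays 1 to 4, -0.12 and 0.00 with siRNA 7 and 0.13 and 0.09 with siRNA 9. The lowest value was thus on a negative array, and negative array 2 was close to the highest, on siRNA 9 array 1. The branch's standard deviation over the 4 negative arrays was 0.145, larger than its median difference for siRNA 7 or siRNA 9 against negative siRNA. HMGCS1 had the largest standard deviation of the branch over the negative arrays, 0.32, and the median over the branch was 0.15, beside 0.13 for all probe sets.

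**Figure D3:**
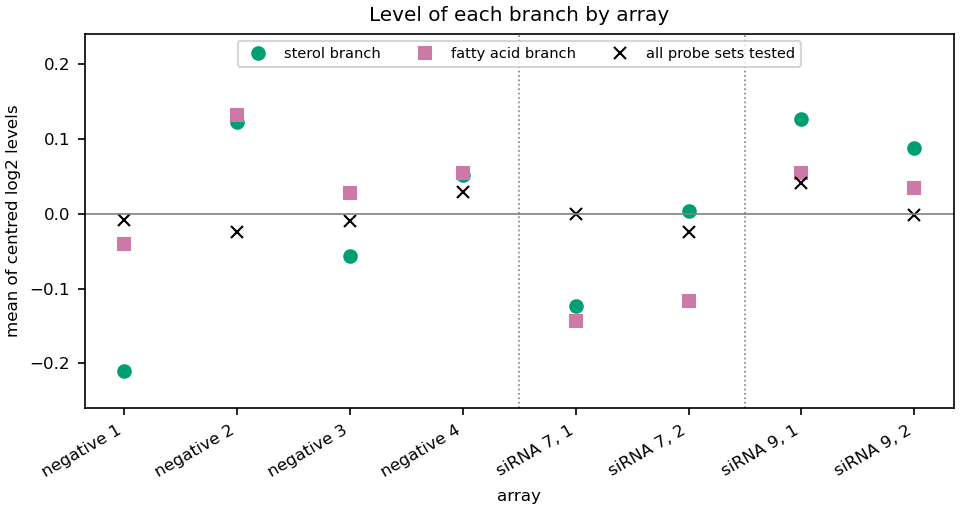
Points are the mean over the genes of a branch (17 sterol, 12 fatty acid) of log2 levels centred per gene over the 8 arrays; crosses are the mean over all 19158 probe sets. The sterol branch runs from -0.21 on negative array 1 to 0.13 on siRNA 9 array 1, and the fatty acid branch is lowest on both siRNA 7 arrays.

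In the fatty acid branch 1 of 12 genes passed, GPAM with siRNA 9. GPAM stood at 8.17, 8.30, 8.27 and 8.09 on the negative arrays, at 7.73 and 8.05 with siRNA 7 and at 7.52 and 7.49 with siRNA 9. All 4 silenced arrays lay below all 4 negative arrays, an order that 1.26% of all probe sets had, and the siRNA 9 arrays were the lowest. GPAM fell with siRNA 9 by 0.70 (SE 0.11, limma adjusted p = 0.0156), had -0.32 with siRNA 7 (SE 0.11, adjusted p = 0.460) and -0.38 between siRNA 9 and siRNA 7 (adjusted p = 0.150). Without negative array 2 the siRNA 9 difference was -0.67 (limma adjusted p = 0.00615); the call ended without negative array 3 (0.0600) and without siRNA 9 array 1 or 2 (0.224 and 0.244). The siRNA 7 difference was -0.16 without siRNA 7 array 1 and -0.48 without siRNA 7 array 2. For both reagents together the log2 difference was -0.51 (limma adjusted p = 0.542). The exact permutation p was 0.0286, the minimum here, which the order of the arrays alone fixes, so it is no separate support.

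Of the desaturases, none passed, and FADS1, FADS2 and SCD had lower values with siRNA 7 than with siRNA 9. FADS1, the delta-5 desaturase of polyunsaturated fatty acids, stood at 9.51, 9.70, 9.51 and 9.67 on the negative arrays, at 9.26 and 8.77 with siRNA 7 and at 9.44 and 9.41 with siRNA 9. All 4 silenced arrays lay below the negative arrays, with siRNA 7 array 2 far below the rest. The difference was -0.59 with siRNA 7 (SE 0.13, limma adjusted p = 0.155) and -0.17 with siRNA 9 (adjusted p = 0.642). The siRNA 7 difference was -0.83 and passed without siRNA 7 array 1 (limma adjusted p = 0.0338), passed with a trended and robust variance prior (limma adjusted p = 0.0418), was -0.34 without siRNA 7 array 2, and was -0.55 without negative array 2.

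FADS2, the delta-6 desaturase, is the coding gene next to FADS1 in RefSeq. It stood at 7.38, 7.32, 7.31 and 7.58 on the negative arrays, at 7.22 and 6.93 with siRNA 7 and at 7.55 and 7.53 with siRNA 9. Both siRNA 7 arrays lay below all other arrays, array 2 again the lower. FADS2 had -0.32 with siRNA 7 (limma adjusted p = 0.470) and 0.14 with siRNA 9 (adjusted p = 0.660), and 0.47 between siRNA 9 and siRNA 7 (SE 0.13, adjusted p = 0.0882). The siRNA 7 difference was -0.47 without siRNA 7 array 1, -0.18 without siRNA 7 array 2 and -0.35 without negative array 2. FADS3, next in that order and outside both branches as listed, had -0.34 with siRNA 7 (limma adjusted p = 0.423).

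**Figure D4:**
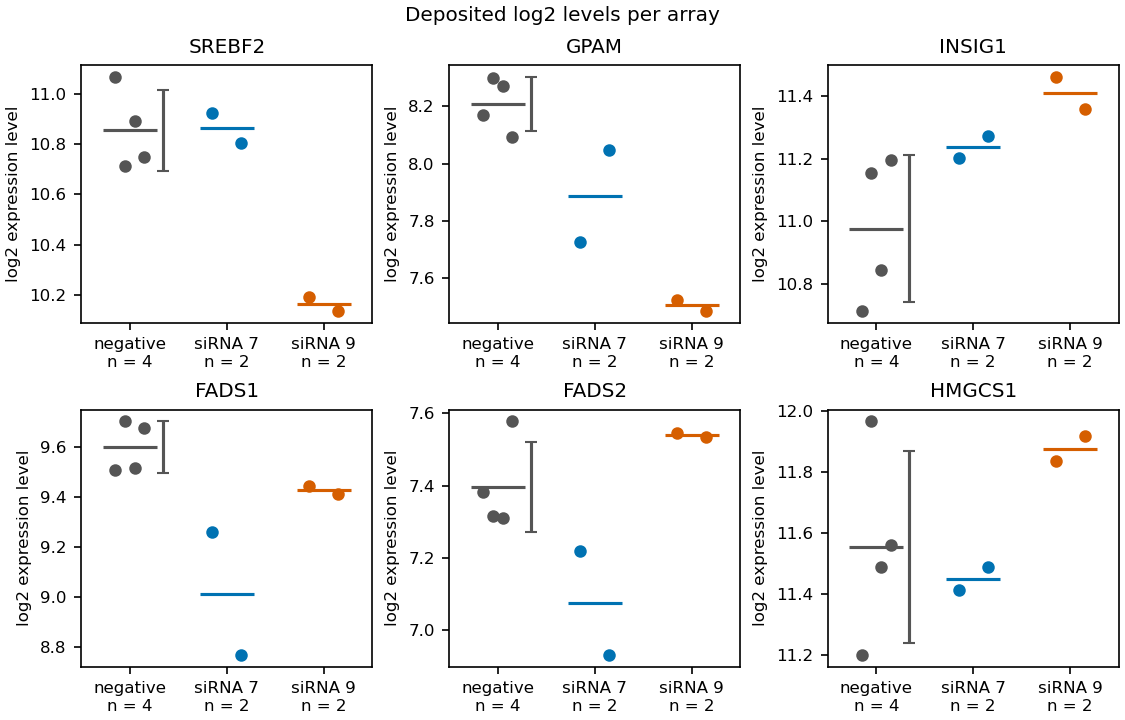
Points are deposited log2 levels on single arrays for 6 genes, by group; horizontal lines are group means, and the bar beside the negative group is its standard deviation (n = 4). Axes do not start at 0 and differ between panels. SREBF2 is low with siRNA 9 alone, GPAM is low with siRNA 9 and intermediate with siRNA 7, and FADS1 and FADS2 are lowest on siRNA 7 array 2.

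SCD, the stearoyl-CoA desaturase, stood at 12.86, 12.99, 12.91 and 12.82 on the negative arrays, at 12.43 and 12.78 with siRNA 7 and at 12.89 and 12.97 with siRNA 9. The siRNA 7 arrays lay below all others, and array 1 was the lower of them, unlike for FADS1 and FADS2. SCD had -0.29 with siRNA 7 and 0.03 with siRNA 9 (limma adjusted p = 0.552 and 0.941). The elongase genes had 0.01 and 0.15 for ELOVL5 and -0.07 and -0.11 for ELOVL6, with siRNA 7 and siRNA 9 in that order.

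Among the enzymes that supply acetyl-CoA and build the chain, ACSS2, which activates acetate, stood at 9.19, 9.54, 9.25 and 9.49 on the negative arrays, at 9.25 and 9.14 with siRNA 7 and at 9.73 and 9.53 with siRNA 9. The siRNA 9 arrays were above both siRNA 7 arrays and overlapped the negative arrays. ACSS2 had 0.44 between siRNA 9 and siRNA 7 (SE 0.14, limma adjusted p = 0.127). The citrate-cleaving enzyme gene ACLY had 0.00 with siRNA 7 and 0.06 with siRNA 9, the carboxylase gene ACACA had -0.12 and 0.11, and the synthase gene FASN had -0.05 and 0.17. ME1, a source of NADPH, had -0.05 and 0.05, and LPIN1, a phosphatidate phosphatase, had -0.10 and 0.02.

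As a branch, 10 of 12 fatty acid genes had a difference below 0 with siRNA 7, with a median of -0.11, and the siRNA 7 arrays lay below all negative arrays for 4 (FADS1, FADS2, SCD and GPAM; 33.3%, against 7.99% of all probe sets). With siRNA 9, 9 of 12 had a difference above 0, with a median of 0.05. The arrays of the reagents did not overlap for 10 of 12 genes: 9 were higher with siRNA 9 (75.0%, against 28.7% of all probe sets) and GPAM was lower (8.33%, against 19.9%). The median between siRNA 9 and siRNA 7 was 0.18, and it lay between 0.15 and 0.21 with each array left out. Set beside the sterol branch, the fatty acid median was -0.11 against -0.05 with siRNA 7, and 0.05 against 0.12 with siRNA 9. The mean of the sterol branch minus that of the fatty acid branch was -0.17, -0.01, -0.08 and -0.00 on negative arrays 1 to 4. It was 0.02 and 0.12 with siRNA 7 and 0.07 and 0.05 with siRNA 9. The silenced arrays thus lay above all negative arrays in this value, which has no test here. The fatty acid mean includes GPAM, which was lower on all silenced arrays than on the negative arrays. The value was not computed without GPAM, so this order is not shown for the rest of the branch. Without negative array 2 the siRNA 7 median was 0.03 for the sterol branch and -0.07 for the fatty acid branch, and the siRNA 9 median was 0.17 and 0.07.

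Over both branches and the regulators, the reagents differed past the threshold for 1 of 33 genes, SREBF2 (3.03%), where limma called 2.23% of all probe sets, 0.82% lower and 1.41% higher with siRNA 9. At an unadjusted p under 0.05, 8 of 33 genes were higher with siRNA 9 (24.2%) and 2 lower (6.06%), beside 9.58% and 6.15% of all probe sets. The share of the 33 called was near that of all probe sets.

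Genes around the 2 branches that are no members were read from 6 lists, also chosen with earlier results known, with 76 of 90 genes measured. With siRNA 7 none passed in limma, where 1 higher and 6 lower had an unadjusted p under 0.05 (1.32% and 7.89%, against 2.81% and 4.66% of all probe sets). With siRNA 9, 1 rose and 1 fell (2.63% together, against 0.924% of all probe sets). CYP39A1, an oxysterol hydroxylase of bile acid synthesis, stood at 6.10, 6.67, 6.07 and 5.80 on the negative arrays, at 5.88 and 6.10 with siRNA 7 and at 7.23 and 7.20 with siRNA 9. It rose with siRNA 9 by 1.06 (SE 0.18, limma adjusted p = 0.0219), and by 1.23 without negative array 2, the highest of the negative arrays (limma adjusted p = 0.000546). The call ended without negative array 1 (0.0664), negative array 3 (0.0707) and siRNA 9 array 1 or 2 (0.315 and 0.272).

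ELOVL1, an elongase of saturated very long chains, stood at 11.04, 11.02 and 11.04 on negative arrays 1, 3 and 4 and slightly lower on negative array 2, at 10.90 and 11.13 with siRNA 7 and at 10.33 and 10.34 with siRNA 9. Both siRNA 9 arrays lay below all others by more than the whole range of those others. ELOVL1 fell with siRNA 9 by 0.69 (SE 0.09, limma adjusted p = 0.00751) and had -0.01 with siRNA 7 (adjusted p = 0.998). Without negative array 2 the siRNA 9 difference was -0.70. The call ended without siRNA 9 array 1 or 2 (0.201 and 0.121).

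Between the reagents 7 of these 76 genes passed (9.21%, against 2.23% of all probe sets), 5 higher and 2 lower with siRNA 9. Higher were CYP39A1 at 1.23, INSIG2, a paralogue of INSIG1, at 1.08, AGPAT5, an acyltransferase that acts after GPAM, at 0.75, NPC1, which exports cholesterol from lysosomes, at 0.56 and OSBP, an oxysterol-binding transfer protein, at 0.47 (limma adjusted p = 0.0175, 0.0475, 0.0104, 0.0373 and 0.0459). Lower were ELOVL1 at -0.68 and CDS2, a CDP-diacylglycerol synthase, at -0.60 (limma adjusted p = 0.0130 and 0.0239). INSIG2 stood at 8.21, 9.27, 8.65 and 8.51 on the negative arrays, at 8.23 and 8.39 with siRNA 7 and at 9.37 and 9.43 with siRNA 9. Negative array 2 was thus nearly as high as the siRNA 9 arrays, and against negative siRNA INSIG2 had 0.74 with siRNA 9 without passing (limma adjusted p = 0.148), and 0.94 without negative array 2, when it passed (limma adjusted p = 0.00240). After median centring the calls of INSIG2, NPC1 and OSBP ended (limma adjusted p = 0.0583, 0.0522 and 0.0575). Without siRNA 9 array 1 or 2 all 7 calls ended (limma adjusted p from 0.125 to 0.335). Without siRNA 7 array 1 or 2 AGPAT5 kept its call (limma adjusted p = 0.0483 and 0.0342), and CDS2 and ELOVL1 kept theirs without array 1 alone (limma adjusted p = 0.0484 and 0.0240). Of the negative arrays, leaving out array 1 ended the calls of NPC1 and OSBP (0.0521 and 0.0696), array 3 those of INSIG2, NPC1 and OSBP (0.0699, 0.0642 and 0.0879) and array 4 that of INSIG2 (0.0519).

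By list, the turnover and processing genes of SREBPs had 1 of 10 called between the reagents, INSIG2 (10.0%). Sterol uptake, storage, efflux and oxysterol sensing had 3 of 14, CYP39A1, NPC1 and OSBP (21.4%). Glycerolipid synthesis had 2 of 16, AGPAT5 and CDS2, in opposite directions (12.5%). Other fatty acid synthesis, elongation and activation had 1 of 22, ELOVL1 (4.55%). The share over all probe sets was 2.23%, and the calls of INSIG2, NPC1 and OSBP ended after median centring, as given above. Other mevalonate enzymes, with 9 measured, and NADPH supply, with 5, had none.

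The genes of smallest unadjusted p in each list that did not pass against negative siRNA were led by AGPAT5 with siRNA 7, at -0.45 (limma adjusted p = 0.138), and CDS2 with siRNA 9, at -0.46 (limma adjusted p = 0.0559). CDS2 passed without negative array 2, at -0.42 (limma adjusted p = 0.0269). With siRNA 7 the others below 0 were COQ2, of coenzyme Q synthesis, at -0.27, OSBP at -0.26, IDH1, a cytosolic isocitrate dehydrogenase, at -0.26, ACACB, another acetyl-CoA carboxylase, at -0.24, LIPA, the lysosomal acid lipase, at -0.20, ERLIN2 at -0.19 and ME3, a malic enzyme, at -0.16, besides FADS3 above. Those above 0 were UBE2G2, a ubiquitin-conjugating enzyme, at 0.36, IDI2 at 0.20 and GPAT4, a glycerol-3-phosphate acyltransferase, at 0.17. With siRNA 9, DGAT1, of triglyceride synthesis, had -0.37, DHDDS, of dolichol synthesis, -0.37, ERLIN2 -0.37, PAQR3 -0.34 and PGLS, of the pentose phosphate pathway, -0.13. Above 0 with siRNA 9 were ACSL4, an acyl-CoA synthetase, at 0.52, NPC1 at 0.37, the farnesyltransferase subunit gene FNTA at 0.27 and IDH1 at 0.12.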

How the data were processed

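Levels in 8 HSC39 samples were measured on Affymetrix Human Gene 1.0 ST arrays, as the platform table shows. The deposited log2 values, 1 per probe set and array, had array medians from 6.78 to 6.87 and differed by at most 0.180 at equal rank, so the authors had brought them near a common distribution; limma is named per the submitters' processing notes, while the sources used here give no normalization method, build or filter. Of 32321 probe sets, the 19158 tied to 1 symbol were tested whatever their level, and 1388 with several and 11775 with none were left out. A RefSeq table (GRCh38.p14) held 19128 of their gene IDs and changed 0 symbols. A gene stood by its brightest probe set.

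Both reagents pooled were set against the negative arrays by limma with 2 groups; each reagent, and siRNA 9 with siRNA 7, in a fit of 3 group means over all 8 arrays. Tests were 2-sided, Benjamini-Hochberg adjusted over 19158 probe sets, at 0.05; fits were checked on simulated data. Branch medians have no test. Members, lists and tests were chosen with earlier results of these data known. Named in full were TRIM44, members called, the 3 of smallest unadjusted p each way per comparison and 2 per branch between reagents, and of other lists the called genes and 2 per list and reagent. Comparisons with negative siRNA share its arrays. R 4.3.3, limma 3.58.1 and matplotlib 3.10.9 were used.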

Additional observations from a re-analysis of the deposited data

Results flagged for a closer look

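The effects of the reagents differed in a direct test for 8 genes (siRNA 9 against siRNA 7, limma adjusted p under 0.05 over all probe sets). They were SREBF2 at -0.70 among the members and, of the other lists, CYP39A1 at 1.23, INSIG2 at 1.08, AGPAT5 at 0.75, NPC1 at 0.56, OSBP at 0.47, ELOVL1 at -0.68 and CDS2 at -0.60 on the log2 scale. These are 1 of 33 members (3.03%) and 7 of 76 other genes (9.21%), beside 2.23% of all probe sets. The calls of INSIG2, NPC1 and OSBP ended after median centring. As given above, the calls also depend on single arrays. Of 66 groups of 4 arrays checked over the 33 genes for a single array far from the other 3, 1 stood out, where chance gives about 1 in 20. This was ACLY on negative array 1, at 12.18, with the other negative arrays between 12.29 and 12.30. The silenced arrays of both reagents were checked as 1 group per gene. A difference between the reagents can hide a single array there, so this check says little for the silenced arrays.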

How the results depend on the processing

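Of 604 values computed for 38 named gene differences under alternatives, 501 kept direction and side of the threshold, 90 lost the call, 11 gained it and 2 changed sign: with each array left out, SC5D with siRNA 7 ranged from -0.056 (without siRNA 7 array 2) to 0.28, and TRIM44 between siRNA 9 and siRNA 7 from -0.15 (without siRNA 7 array 1) to 0.27. Most of the 38 were not called as reported, so keeping their side of the threshold says little for them. All 90 lost calls came from the others. Branch medians moved by less than their spread over the negative arrays under the alternatives run for them. That spread, 0.145 for the sterol and 0.071 for the fatty acid branch, was larger than most of the medians. With each array left out, the sterol median ranged from -0.11 to 0.03 with siRNA 7 and from -0.03 to 0.09 with both reagents. The fatty acid median with both reagents ranged from -0.07 to 0.02, so these signs changed. The number of members called with siRNA 9 was 2, and 0 with all probe sets tested or the replicate block, 7 with array weights and 0 to 5 with each array left out: 5 without negative array 2, and 0 without negative array 3 or siRNA 9 array 1 or 2. With array weights, IDI1, ACSS2, HMGCS1, INSIG1 and the dimmer CYP51A1 probe set were added. Between the reagents it was 1, and 0 with all probe sets, 2 with quantile normalization or the trended prior (CYP51A1 added), 2 with array weights (FADS2 added) and 0 to 1 with each array left out, 0 without any 1 of the siRNA arrays. With siRNA 7 it was 0, and 1 with the trended prior, and 0 to 1 with each array left out (FADS1 without siRNA 7 array 1); with both reagents it was 0, and 1 (GPAM) with array weights. The causes were not tested. Calls over all probe sets moved with the settings too, with siRNA 9 up to 1067 with an array left out, against 177 as reported. Members gained under an alternative are not set beside the share of all probe sets called there. They are therefore no separate support. Over all probe sets, calls ranged over the alternatives from 0 to 33 for both reagents (1 as reported), 0 to 83 for siRNA 7 (13), 0 to 2082 for siRNA 9 (177) and 0 to 1063 between them (428).

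The labels share replicate numbers but state no pairing. Deviations of same-numbered arrays correlated at 0.02 to 0.31. Numbers 3 and 4 occur on negative arrays alone. In a fit with the replicate number as a block, those arrays thus drop out of the differences from negative siRNA. Such a fit rests on fewer arrays, and calls lost in it cannot be laid to pairing. With the replicate number as a block, SREBF2 with siRNA 9 had -0.73 (limma adjusted p = 0.0522) and GPAM -0.73 (limma adjusted p = 0.0575), so 0 members passed, and between the reagents SREBF2 kept its call (limma adjusted p = 0.0257). ELOVL1 and CYP39A1 with siRNA 9 (0.0622 and 0.0672), OSBP between the reagents (0.0635) and TRIM44 with siRNA 7 (0.152) and with both reagents (0.998) also lost theirs. Arrays of 2 per reagent and unknown background limit what small differences show.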

Other observations

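SREBF2 carries the microRNA gene MIR33A in an intron, and MIR33A has a probe set of its own, looked at after the SREBF2 values were seen. It stood between 3.99 and 4.46 on the negative arrays, at 4.32 and 4.09 with siRNA 7 and at 4.15 and 4.33 with siRNA 9. The siRNA 9 difference was 0.03 (limma adjusted p = 0.959), where SREBF2 had -0.69; whether this probe set is above background is not known.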
